A study of Mus musculus with 6 samples.

Results

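Epiregulin (Ereg) and its receptor Egfr were higher in mouse colonic fibroblasts kept in inflammatory conditioned medium, by 2.32-fold and 1.52-fold, whereas neuregulin 1 (Nrg1), betacellulin (Btc), heparin-binding EGF-like growth factor (Hbegf) and the other members tested did not pass the test. The genes described are 9 of the 38896 genes in the count table, taken by symbol as the EGF family: the 7 ligands Ereg, Areg, Epgn, Btc, Hbegf, Tgfa and Nrg1, and the 2 receptors Egfr and Erbb2. Primary fibroblasts of the distal colon of mice aged 6 weeks were carried through 2 passages and then held for 24 h in inflammatory or control medium. The labels name the groups DSS and control. They enter these words under genotype and give no strain, allele or sex, and the sources used here do not say how the inflammatory medium was prepared. DSS is the usual abbreviation of dextran sulfate sodium, which is used to induce colitis in mice, and DSS is read here as the inflammatory medium. Mice 1716, 1717 and 1718 each gave 1 DSS and 1 control library, so n = 3 per group and the groups were paired by animal. Each value is of a culture of 1 mouse.

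EGF family ligands are made as membrane proteins whose extracellular part carries an EGF domain, a short fold held by cysteine bridges. Proteases release this domain, which binds receptors of the ErbB family and brings them together in pairs, and the paired kinases then signal through the Ras and ERK cascade. Epiregulin, amphiregulin (Areg), epigen (Epgn), betacellulin, TGF-alpha (Tgfa) and Hbegf bind Egfr, neuregulin 1 binds Erbb3 and Erbb4, and Erbb2 has no known ligand and acts as a partner of the others. In the gut, stromal and epithelial ligands of this family are known for their part in epithelial repair.

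The coding sequence of the EGF motif shows what the ligands have in common. It is printed from GENCODE transcripts on the GRCm38 build, spliced and 5′ to 3′ on the coding strand, with the codons of the 6 cysteines in capitals. The positions are those of the motif's first and last coding base, with 1 exon junction in between. The motif of Hbegf is not shown.
Ereg, chr5:91088496-91089111, plus strand: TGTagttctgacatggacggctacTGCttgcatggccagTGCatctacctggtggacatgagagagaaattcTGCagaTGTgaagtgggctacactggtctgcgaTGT
Areg, chr5:91143614-91144364, plus strand: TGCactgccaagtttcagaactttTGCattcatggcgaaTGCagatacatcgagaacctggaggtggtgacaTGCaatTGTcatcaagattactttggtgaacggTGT
Epgn, chr5:91031152-91032237, plus strand: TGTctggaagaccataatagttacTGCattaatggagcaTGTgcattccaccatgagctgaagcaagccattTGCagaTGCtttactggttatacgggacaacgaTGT
Btc, chr5:91362421-91366197, minus strand: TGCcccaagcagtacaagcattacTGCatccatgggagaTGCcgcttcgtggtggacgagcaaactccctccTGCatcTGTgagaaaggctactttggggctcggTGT
Tgfa, chr6:86263200-86269960, plus strand: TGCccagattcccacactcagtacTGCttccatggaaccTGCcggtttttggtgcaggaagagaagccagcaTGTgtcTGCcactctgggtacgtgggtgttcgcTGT
Nrg1, chr8:31837698-31849398, minus strand: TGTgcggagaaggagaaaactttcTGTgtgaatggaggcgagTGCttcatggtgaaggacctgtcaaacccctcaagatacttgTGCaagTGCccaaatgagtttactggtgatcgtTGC
Each of the Egfr ligands, Hbegf included, encoded 36 residues from the first cysteine to the last, and Nrg1 encoded 40, with longer stretches between the cysteines. The junction lay inside the motif in all 7 ligands. Over the 36 aligned residues Btc was closest to Hbegf, with 55.6% identical, and to Tgfa, with 52.8%. Ereg shared 44.4% with Btc and with Hbegf, 41.7% with Epgn and 33.3% with Areg, its neighbours on the chromosome.

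Epgn, Ereg, Areg and Btc lie side by side on chromosome 5 (GRCm38), within 375478 bases and with no other protein-coding RefSeq gene among them. Ereg (NCBI gene 13874) runs from 91074617 to 91093649 on the plus strand. Epgn (71920) starts at 91027517 and ends at 91035212, and Areg (11839) starts at 91139599 and ends at 91148432, both on the plus strand. Btc (12223) runs from 91357261 to 91402994 on the minus strand. Hbegf (15200) is at chr18:36504927-36515805, minus strand, Tgfa (21802) at chr6:86195038-86275744, plus strand, and Nrg1 (211323) at chr8:31807452-32891609, minus strand. The receptor genes are both on chromosome 11, Egfr (13649) at chr11:16752203-16913907 and Erbb2 (13866) at chr11:98412484-98437716, plus strand.

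The libraries held 17293680 to 17931239 estimated counts in DSS and 17734405 to 19482938 in control. Levels are counts scaled to library size by TMM (CPM). Differences are log2 fold changes, DSS over control, ± an SE derived from the F statistic of edgeR's quasi-likelihood test. The p-values of that test were adjusted over 19869 genes by Benjamini and Hochberg. A gene is called where the adjusted p is under 0.05. The cultures carried fibroblast RNA: the 9 fibroblast markers summed to 20130 to 24720 CPM in DSS and 37350 to 44060 CPM in control, of which Pdgfra rose and 5 others fell. The 8 macrophage markers summed to 1255 to 2068 CPM in DSS and 1994 to 2877 CPM in control, with 1 risen and 3 fallen. The 3 enteric glia markers summed to 29.5 to 138 CPM in DSS and 49.5 to 173.5 CPM in control. The 8 epithelial markers summed to 4.10 to 6.13 CPM in DSS and 12.0 to 16.9 CPM in control. Of the 4 tested, 2 fell (Krt19 and Muc2), and Epcam was at 0.114 CPM or less in each library. Endothelial, mesothelial and lymphocyte markers, 4 each, summed to at most 10.1, 4.11 and 6.68 CPM in DSS and 17.3, 4.22 and 5.42 CPM in control. No marker of any of these lists was at 0 in all 6 libraries. In RNA of whole cultures, fewer cells of a type and less RNA per cell cannot be told apart, and the part of these cells in the results was not tested.

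Of the 9 genes, 8 passed the filter on low counts and were tested; Epgn was not. Ereg and Egfr rose and none of the tested members fell, against 7.37% of all tested genes called higher and 5.91% called lower. With a block for the mouse added to the fit, which sets each DSS library against the control library of the same animal, the same 2 members rose and 0 fell, against 12.3% of genes higher and 12.7% lower. The median log2 fold change was 0.29 over the 8 members and 0.01 over all tested genes. The DSS and control libraries did not overlap for 3 of the 8, Ereg, Egfr and Erbb2, as for 34.2% of all tested genes.

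**Figure D1:**
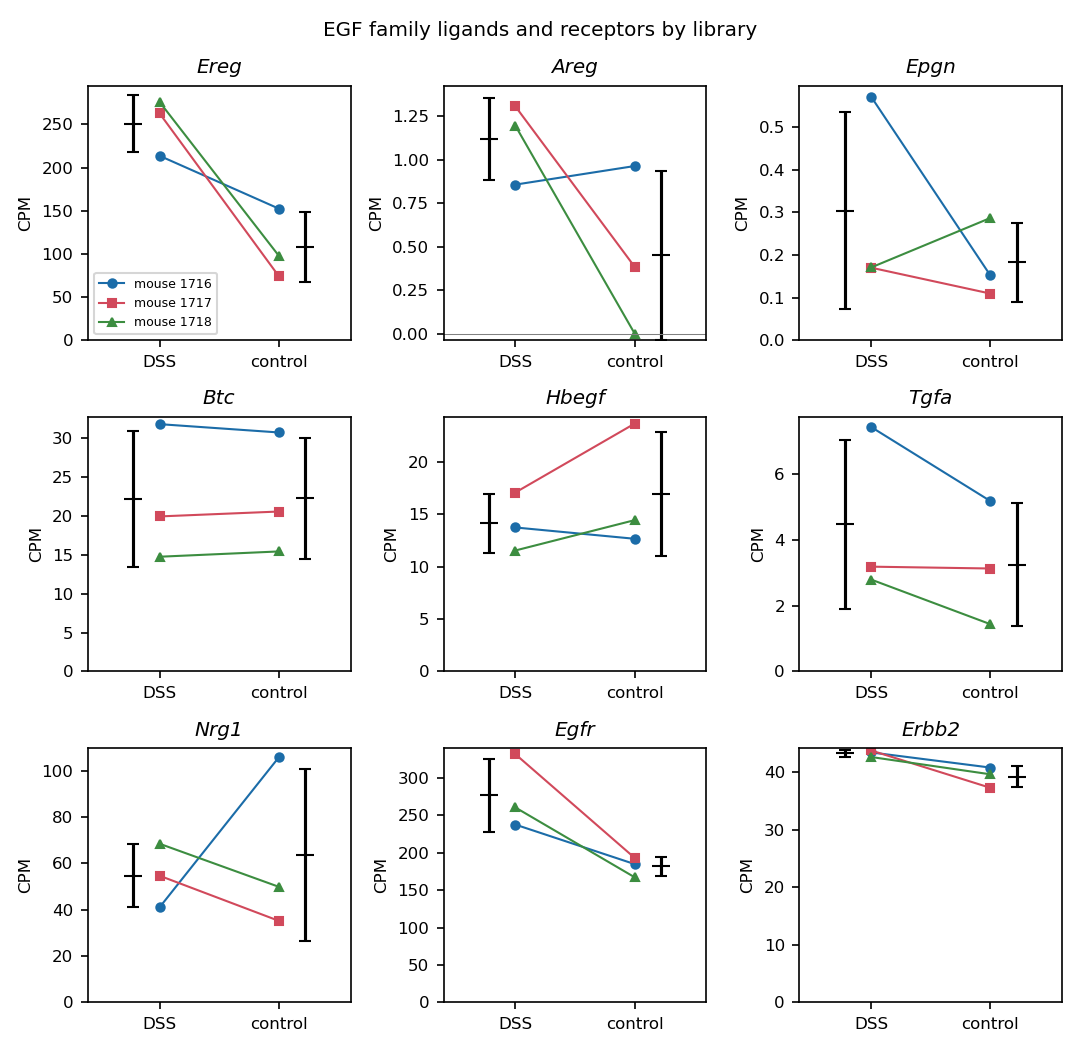
Level of each EGF family gene in CPM (vertical axis, linear) in DSS and control libraries, with a line joining the libraries of a mouse. The bars beside the points are mean ± SD over 3 libraries. Ereg, Egfr and Erbb2 are the genes whose groups do not overlap, and in Nrg1 control 1716, at 106 CPM, lies above all other libraries.

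Ereg was the most abundant ligand. Its level was 214, 263 and 276 CPM in the DSS libraries of mice 1716, 1717 and 1718, against 152.5, 74.2 and 97.9 CPM in their control libraries. All DSS libraries lay above all control libraries, and the smallest gap was in mouse 1716, which had both the lowest DSS and the highest control value. The means were 251 ± 32.8 CPM in DSS and 108 ± 40.2 CPM in control (SD, n = 3 each), a 2.32-fold rise (log2 1.21 ± 0.25, edgeR adjusted p = 0.0183). The rise within a mouse was 0.49, 1.83 and 1.50 on the log2 scale in mice 1716, 1717 and 1718, and the fit with the mouse block gave 1.27 ± 0.22 (adjusted p = 0.00627). The call was lost without DSS 1717 (adjusted p = 0.0528), DSS 1718 (0.0536), control 1718 (0.0695), both libraries of mouse 1717 (0.122) or both of mouse 1718 (0.158). The log2 fold change stayed between 0.97 and 1.65 in the 9 leave-out fits, edgeR fits without 1 library or without both libraries of 1 mouse. All leave-out fits here have the group as the only term, and the fit with the mouse block was not repeated with libraries left out. Gm19610, a long noncoding RNA gene that overlaps the start of Ereg by 319 bases, had 3.08, 5.17 and 4.61 CPM in DSS and 5.63, 4.55 and 5.73 CPM in control, and was not called (log2 -0.31 ± 0.21, adjusted p = 0.387).

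Areg, amphiregulin, was close to the limit of detection. It had 15, 23 and 21 counts in DSS and 19, 7 and 0 counts in control. The DSS values lay close together and control 1716 was among them, so the groups overlapped. The 0 of control 1718 allows up to 3 counts, or 0.172 CPM, by counting error alone. On the CPM scale the means were 1.12 ± 0.23 in DSS and 0.45 ± 0.48 in control (SD, n = 3 each), and the log2 fold change of 1.26 ± 0.70 did not pass the test (edgeR adjusted p = 0.286, with the mouse block 0.203). It was 2.47 without control 1716, 0.71 without control 1718 and 2.26 by limma-voom. Epgn, epigen, had 10, 3 and 3 counts in DSS and 3, 2 and 5 in control, too few for the test. Of the 4 neighbours on chromosome 5, Ereg alone was called.

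Btc, the furthest of that group from Ereg, had like levels in both media of a mouse. It had 31.8, 19.9 and 14.7 CPM in the DSS libraries of mice 1716, 1717 and 1718, against 30.7, 20.6 and 15.4 CPM in their control libraries. The order of the mice was the same in both media, and the libraries of a mouse differed by at most 0.07 on the log2 scale in either direction. The log2 fold change was -0.01 ± 0.32 (edgeR adjusted p = 0.991), and with the mouse block it was -0.02 ± 0.069 (adjusted p = 0.902).

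Tgfa had 7.42, 3.18 and 2.79 CPM in DSS and 5.17, 3.12 and 1.43 CPM in control. Mouse 1716 was again highest in both media and mouse 1718 lowest, and the groups overlapped. The log2 fold change was 0.45 ± 0.51 (edgeR adjusted p = 0.624) and 0.46 ± 0.19 with the mouse block (adjusted p = 0.12). Without DSS 1716 it was -0.13.

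Hbegf, a ligand that also serves as the receptor of diphtheria toxin, had 13.8, 17.1 and 11.6 CPM in DSS and 12.7, 23.7 and 14.5 CPM in control. Mouse 1717 was highest in both media, and the groups overlapped. It was not called (log2 -0.26 ± 0.25, edgeR adjusted p = 0.556, with the mouse block 0.205), and without control 1717 the log2 fold change was 0.06.

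Nrg1 was the second most abundant ligand in CPM, and its direction differed between mice. It had 41.0, 54.7 and 68.5 CPM in the DSS libraries of mice 1716, 1717 and 1718, against 106, 35.2 and 49.9 CPM in their control libraries. Control 1716 was the highest library of all, and the DSS library of that mouse lay below the other DSS libraries. Within a mouse the log2 difference was -1.37 in mouse 1716, 0.64 in mouse 1717 and 0.46 in mouse 1718. The fit gave -0.22 ± 0.39 (edgeR adjusted p = 0.763), and with the mouse block -0.09 ± 0.35 (adjusted p = 0.879). Without control 1716 the log2 fold change was 0.36 (adjusted p = 0.417), and without both libraries of mouse 1716 it was 0.53 (adjusted p = 0.165).

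The table listed 43 RefSeq transcripts of Nrg1, a gene known for isoforms that differ in their first exons, EGF domain and cytoplasmic tail. Of these, 26 were at 0 in every library, 9 were tested, and the tested ones held 95.5 to 99.8% of the counts of the gene in a library. NM_001364421.1, whose protein of 645 residues contains the EGF motif printed above, was the most abundant. It had 16.8, 21.9 and 30.8 CPM in DSS and 48.6, 14.0 and 18.5 CPM in control, so that control 1716 stood apart as it did for the whole gene. It made up 41.9 ± 2.62% of Nrg1 counts in DSS and 40.6 ± 4.40% in control (SD, n = 3 each), and its level was not called (log2 -0.22 ± 0.52, edgeR adjusted p = 0.949).

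The next transcript, XM_030243396.1, had 6.86, 6.02 and 7.72 CPM in DSS and 18.7, 7.64 and 6.80 CPM in control. Here too control 1716 was the highest library, and its share of the gene was 13.0 ± 3.34% in DSS and 17.5 ± 3.93% in control. XM_030243393.1 had 3.80, 7.34 and 8.98 CPM in DSS and 6.34, 0 and 10.4 CPM in control. XM_006509081.3 had 0, 1.89 and 6.81 CPM in DSS and 6.85, 3.82 and 4.73 CPM in control. Both were thus at 0 in 1 library and above 6 CPM in another of the same group. XM_030243397.1, NM_001364428.1, NM_001364429.1 and NM_001364431.1 averaged 3.87, 3.86, 3.83 and 1.73 CPM in DSS and 4.61, 4.03, 3.91 and 1.54 CPM in control. None of the 9 tested transcripts was called for its level, where 0.696% of all tested transcripts were called. None was called for its share of the gene, where 0.324% were called by edgeR's diffSpliceDGE. Some were loosely estimated, such as XM_006509081.3 with a log2 fold change in level of -0.82 ± 1.41. The count at an unadjusted p under 0.05 was 0 for level and for share, with and without the mouse block, and 0 for level by limma-voom. How surely kallisto divided reads among these transcripts is not in the file, so single transcripts at 0 are uncertain.

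**Figure D2:**
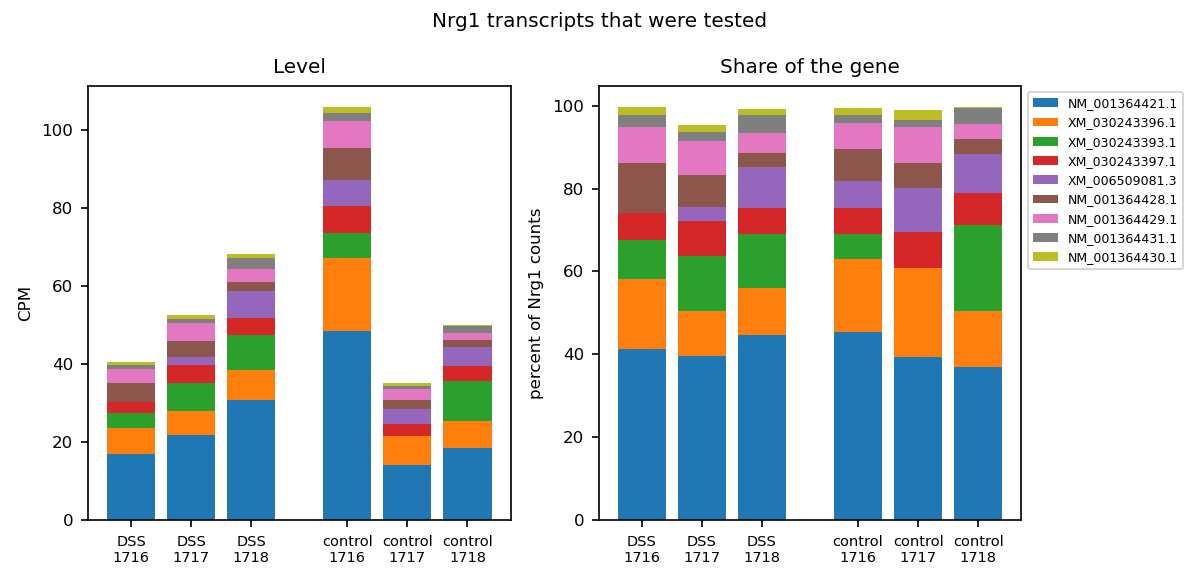
The 9 tested Nrg1 transcripts in each library, DSS left of control, as stacked CPM (left panel) and as percent of the counts of the gene (right panel). NM_001364421.1 made up 37.0 to 45.5% of the gene in each library, and control 1716 is the tallest column.

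Egfr, the receptor of all these ligands but neuregulin 1, rose together with Ereg. It had 238, 332 and 260.5 CPM in the DSS libraries of mice 1716, 1717 and 1718, against 185, 193 and 167 CPM in their control libraries. All DSS libraries lay above all control libraries, and the DSS libraries were further apart than the control ones. The means were 277 ± 49.1 CPM in DSS and 182 ± 13.2 CPM in control (SD, n = 3 each), a 1.52-fold rise (log2 0.61 ± 0.13, edgeR adjusted p = 0.0216). The rise within a mouse was 0.36, 0.78 and 0.64 on the log2 scale in mice 1716, 1717 and 1718, and the mouse block gave 0.59 ± 0.084 (adjusted p = 0.00242). The call was lost without control 1716 (adjusted p = 0.0643), control 1717 (0.0628), control 1718 (0.082), both libraries of mouse 1717 (0.0844) or both of mouse 1718 (0.139), with log2 fold changes of 0.45 to 0.72 over the 9 leave-out fits.

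Egfr has 2 transcripts in the table. NM_207655.2 encodes the full receptor of 1210 residues. NM_007912.4 encodes 655 residues, of which the first 642 are those of the full receptor, and ends before the kinase domain. The full-length transcript had 206, 290 and 229.5 CPM in DSS and 169, 168 and 147 CPM in control, and the short one 29.8, 45.5 and 32.4 CPM in DSS and 17.6, 27.5 and 20.7 CPM in control. All DSS values lay above all control values in both transcripts. Neither was called at transcript level. The log2 fold change was 0.58 ± 0.14 for the full-length transcript (edgeR unadjusted p = 0.00726, adjusted p = 0.155). For the short transcript it was 0.71 ± 0.24 (edgeR unadjusted p = 0.0252, adjusted p = 0.288). The short transcript held 12.9 ± 0.63% of Egfr counts in DSS and 11.9 ± 2.34% in control (SD, n = 3 each), and neither transcript was called for its share (diffSpliceDGE unadjusted p = 0.942 and 0.706).

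A pair of long noncoding RNA genes lie within the span of Egfr, and both were looked up after the result for Egfr was known. Gm39584 (chr11:16782393-16793449) had 64.3, 90.1 and 79.4 CPM in DSS and 42.3, 52.3 and 44.5 CPM in control. Egfros (chr11:16809648-16830750), named for its place on the opposite strand, had 42.9, 62.0 and 51.4 CPM in DSS and 29.6, 32.2 and 31.5 CPM in control. Mouse 1717 had the highest DSS value in both, as it did for Egfr, and the groups did not overlap. Both rose, Gm39584 by log2 0.75 ± 0.14 (edgeR adjusted p = 0.0121) and Egfros by 0.74 ± 0.13 (adjusted p = 0.0109). The libraries were directional, but the sources used here do not say whether the counting used strand, and reads of Egfr introns and of these genes cannot be told apart from these counts.

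Erbb2, the partner receptor without a ligand of its own, had 43.5, 43.8 and 42.7 CPM in DSS and 40.8, 37.3 and 39.7 CPM in control. All DSS libraries lay above all control libraries by a small margin. The log2 fold change of 0.14 ± 0.065 did not pass the test (edgeR adjusted p = 0.204, with the mouse block 0.136).

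**Figure D3:**
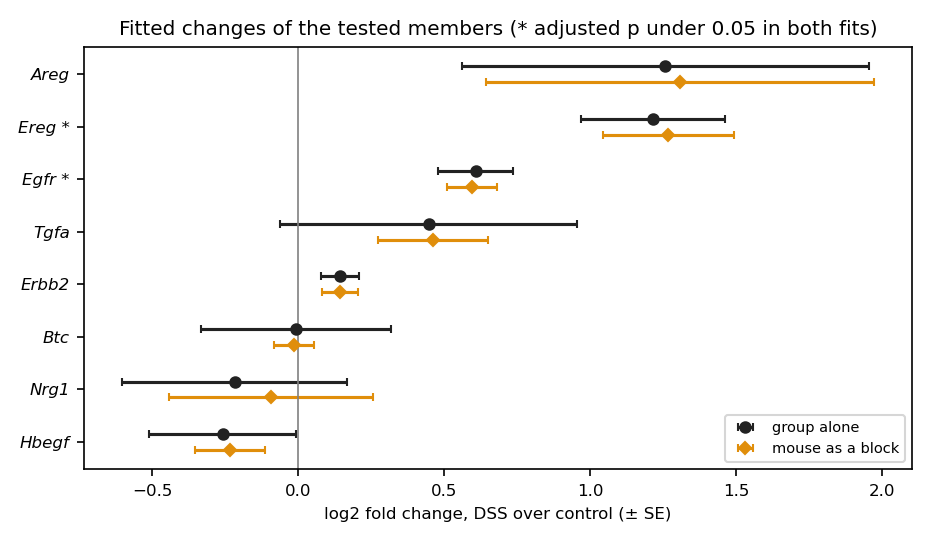
Log2 fold change of the 8 tested EGF family genes, DSS over control, ± SE, fitted with the group alone (circles) and with a mouse block (diamonds). Ereg and Egfr are marked with a star as called in both fits. The bars of Btc, Tgfa and Hbegf are shorter with the block, while those of Nrg1 and Areg stay wide.

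Set per kilobase of the matched GENCODE transcript, the transcript of Ereg had the highest mean in both media. It was at 60.8 ± 7.95 CPM per kb in DSS and 26.2 ± 9.73 in control (SD, n = 3 each). The 2 Egfr transcripts are given apart, so Ereg is not ranked here against the whole Egfr gene. In CPM per gene the mean of Egfr was above that of Ereg, at 277 against 251 in DSS and 182 against 108 in control. Egfr followed, with 23.6 ± 4.02 CPM per kb for its full-length transcript in DSS and 15.7 ± 1.14 in control, and 12.2 ± 2.75 for the short one in DSS and 7.38 ± 1.69 in control. Erbb2, Btc, Hbegf and the main Nrg1 transcript followed in DSS, at mean levels of 8.65, 7.70, 5.95 and 4.26 CPM per kb in DSS and 7.84, 7.73, 7.13 and 4.95 in control. The Nrg1 value leaves out the other Nrg1 transcripts, as NM_001364421.1 held 41.9% of Nrg1 counts in DSS and 40.6% in control. The place of Nrg1 as a whole gene is therefore not given. In control the short Egfr transcript lay below Erbb2 and Btc in the mean. In DSS the libraries of Btc overlapped those of the short Egfr transcript, of Erbb2 and of Hbegf, and those of Hbegf overlapped those of Nrg1, so the order among these neighbours is not settled. Tgfa and Areg, at 0.977 and 0.921 CPM per kb in DSS and 0.712 and 0.369 in control, overlapped each other as well, and Epgn was lowest at 0.173 in DSS and 0.104 in control.

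The genes whose pattern over the 6 libraries was nearest to that of a member were found by the root mean square difference of centred log2 CPM, over the 12571 genes that averaged at least 5 CPM. Nearest to Ereg were Prxl2a, Tead4 and Gnai1, at distances of 0.14, 0.18 and 0.18. Prxl2a had 14.7, 17.3 and 17.1 CPM in DSS and 10.1, 5.70 and 5.56 CPM in control, so that mouse 1716 had the smallest gap there as well. Nearest to Egfr were Acad12, Tmem53 and Nod2, at 0.05, 0.06 and 0.06. Nearest to Nrg1 was Gm33223, at 0.10, with Prex2 at 0.19 and Gja1 at 0.24. Gm33223 is a long noncoding RNA gene within the span of Nrg1 (chr8:31919554-31926205), and it had 9.47, 11.9 and 14.5 CPM in DSS and 26.3, 8.77 and 10.4 CPM in control. The other tested genes that overlap Nrg1, Gm26578, Gm39155 and Gm33082, did not share this pattern. Control 1716 had 2.43, 0.557 and 6.23 CPM of them and was the highest library for none. As for the genes within Egfr, reads of Nrg1 introns and of Gm33223 cannot be told apart from these counts. These distances are a description and were not tested.

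Other genes of the pathway were taken from 5 lists with 67 genes in all, of which 64 were tested. Of these 5 rose and 4 fell, with a median log2 fold change of 0.03, and the background is that given above for all genes. Of the further ligands and receptors, 4 of 6 were tested and none rose or fell. Nrg2, a neuregulin, had 4.85, 4.37 and 4.38 CPM in DSS and 3.35, 3.78 and 3.50 CPM in control (log2 0.36 ± 0.13, edgeR adjusted p = 0.12). Nrg4, a ligand of Erbb4, had 2.40, 2.50 and 2.33 CPM in DSS and 2.69, 3.12 and 2.35 CPM in control (log2 -0.18 ± 0.17, adjusted p = 0.545). Egf itself, added after its values were seen, was near 1 CPM, at 1.54, 0.681 and 1.02 CPM in DSS and 1.01, 1.43 and 0.631 CPM in control (log2 0.08 ± 0.39, adjusted p = 0.928). The groups overlapped for Egf and Nrg4 and not for Nrg2. Erbb4 had no count in 5 of the 6 libraries and Nrg3 was too low to be tested.

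Erbb3, the neuregulin receptor that pairs with Erbb2, had 89.98, 52.1 and 26.2 CPM in the DSS libraries of mice 1716, 1717 and 1718, against 103.8, 70.6 and 35.8 CPM in their control libraries. The mice differed by more than the media, the groups overlapped, and each DSS library lay below the control library of its mouse. The fit with the group alone did not call it (log2 -0.32 ± 0.49, edgeR adjusted p = 0.72), and with the mouse block it fell by 0.36 ± 0.069 on the log2 scale (adjusted p = 0.00904). The summed enteric glia markers Sox10, S100b and Gfap had the same order, with 138, 75.3 and 29.5 CPM in DSS and 173.5, 127.5 and 49.5 CPM in control. Of these, Gfap had the lowest log2 fold change (-1.57, not called), while Sox10 was at -0.02 and had 103.2 CPM in DSS 1716, above 87.2 CPM in control 1716. Btc and Tgfa followed this order of mice too. The order was not particular to glia markers, as the endothelial marker Pecam1 and the protease gene Adam10 had it as well. Adam10 had 179, 154 and 138 CPM in DSS and 205, 170 and 146 CPM in control. The part of glia in the levels of Erbb3, Btc and Tgfa was not tested.

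**Figure D4:**
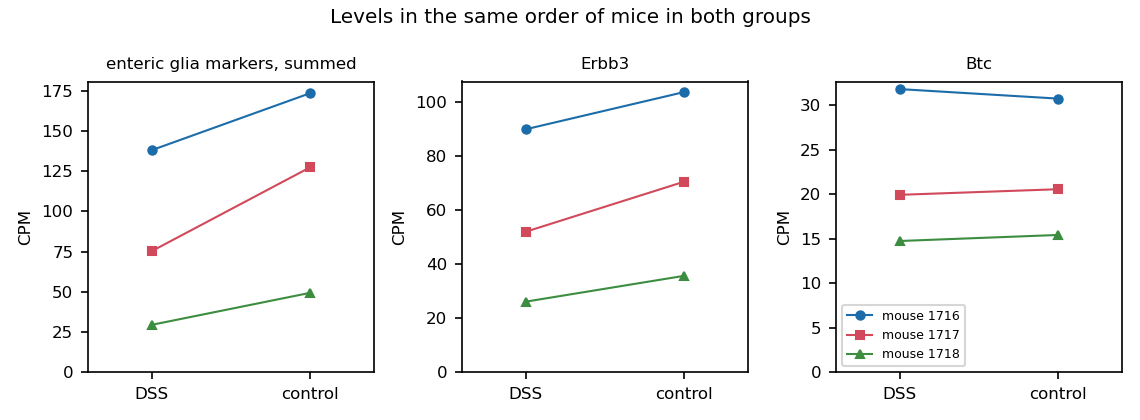
CPM of the 3 summed enteric glia markers, of Erbb3 and of Btc in DSS and control libraries, with a line for each mouse. In each panel mouse 1716 is highest and mouse 1718 lowest in both media, and the lines of the summed glia markers and Erbb3 lie lower in DSS.

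Among genes for ligand release and trafficking, 0 of 12 rose and 2 fell, with a median of -0.02. Timp3, an inhibitor of the metalloproteinases that release EGF ligands, had 161, 137 and 158 CPM in DSS and 427, 429.8 and 472.5 CPM in control. All DSS libraries lay far below the control ones, and the log2 fold change of -1.54 ± 0.088 (edgeR adjusted p = 0.000438) was called in all 9 leave-out fits. Adam12, a metalloproteinase known to release Hbegf, had 118, 80.6 and 105 CPM in DSS and 206, 234 and 249 CPM in control (log2 -1.18 ± 0.15, adjusted p = 0.00318), and was also called in those 9 fits. Adam9 had 330.0, 329 and 324 CPM in DSS and 279.9, 295.9 and 279.6 CPM in control. Its log2 fold change of 0.20 ± 0.063 was not called with the group alone (adjusted p = 0.0781) and was called with the mouse block (0.0368), but not by DESeq2 with that block (0.129). In edgeR with the mouse block 2 of the 12 rose and 3 fell.

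Of the genes that restrain the receptors, 15 of 16 were tested, 2 rose and 1 fell, with a median of 0.25. Ptpn1, a phosphatase that acts on Egfr, had 113, 150.3 and 155.5 CPM in DSS and 71.7, 80.7 and 72.9 CPM in control (log2 0.89 ± 0.13, edgeR adjusted p = 0.00509). The groups were well apart, and the call was lost without mouse 1717 (0.0647) or mouse 1718 (0.0697). Cbl, a ubiquitin ligase that marks activated Egfr for breakdown, had 273, 296 and 288 CPM in DSS and 231, 237 and 233 CPM in control (log2 0.29 ± 0.064, adjusted p = 0.0249). Lrig3, related to the ErbB inhibitor Lrig1, had 17.1, 17.8 and 17.6 CPM in DSS and 21.1, 23.1 and 24.3 CPM in control (log2 -0.38 ± 0.083, adjusted p = 0.0232). Both differences were small, and each call held in 1 of the 9 leave-out fits, that without DSS 1716 for Cbl (0.0262) and that without control 1716 for Lrig3 (0.031), with adjusted p up to 0.208 and 0.189 in the others. With the mouse block 5 of the 15 rose and 2 fell.

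Of the adaptors and kinases downstream, 0 of 20 rose and 1 fell, with a median of -0.01, and with the mouse block 3 rose and 7 fell. Nras, a Ras GTPase, had 63.2, 59.3 and 60.3 CPM in DSS and 73.2, 77.5 and 75.3 CPM in control. The groups did not overlap (log2 -0.31 ± 0.061, edgeR adjusted p = 0.0174), and the call held in 3 of the 9 leave-out fits, with adjusted p of 0.0253 to 0.193 over the 9. Hras, another Ras GTPase, had 12.9, 16.2 and 16.7 CPM in DSS and 19.4, 19.3 and 19.7 CPM in control. All DSS libraries lay below all control libraries, and mouse 1716 had the lowest DSS value. The log2 fold change of -0.35 ± 0.11 was not called with the group alone (adjusted p = 0.0842) and was called with the mouse block (0.0312), but not by DESeq2 with that block (0.133). Pik3r1, the regulatory subunit of PI 3-kinase, had 54.1, 49.6 and 47.5 CPM in DSS and 75.4, 63.6 and 56.7 CPM in control. It was called with the mouse block (log2 -0.37 ± 0.064, adjusted p = 0.006), not with the group alone (0.0705), although DESeq2 with the group alone (0.0485) and the fit without control 1718 (0.0476) called it.

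Of the genes that ERK signalling is known to induce, 3 of 13 rose and none fell, with a median of 0.01. Phlda1, a pleckstrin-homology protein, had 162, 189 and 198 CPM in DSS and 109, 104 and 117 CPM in control (log2 0.74 ± 0.093, edgeR adjusted p = 0.00339, without mouse 1717 0.066). Fosl1, an AP-1 subunit, had 20.8, 29.0 and 27.4 CPM in DSS and 10.8, 12.6 and 14.0 CPM in control (log2 1.04 ± 0.15, adjusted p = 0.0055), and lost its call without mouse 1717 (0.0832) or mouse 1718 (0.0541). Egr1, an early-response transcription factor, had 69.2, 111 and 95.3 CPM in DSS and 44.9, 54.7 and 61.0 CPM in control (log2 0.78 ± 0.18, adjusted p = 0.0307). In all 3 genes the groups did not overlap and mouse 1716 had the lowest DSS value. The call of Egr1 held in 2 of the 9 leave-out fits, those without DSS 1716 (0.00901) and without mouse 1716 (0.0125), with adjusted p up to 0.208 in the others. With the mouse block 4 of the 13 rose and 2 fell.

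**Figure D5:**
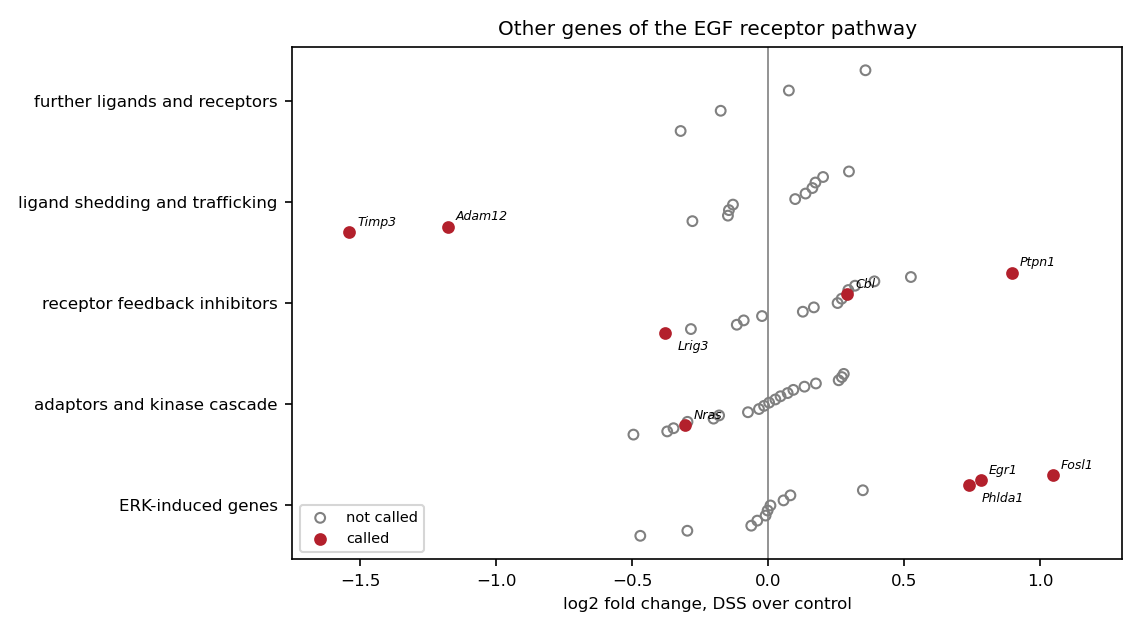
Log2 fold change, DSS over control, of the 64 tested pathway genes in 5 lists, 1 point per gene, with the genes called by the fit with the group alone filled and named. Timp3 and Adam12 lie furthest to the left, and Fosl1, Ptpn1, Egr1 and Phlda1 furthest to the right.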

How the data were processed

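Directional libraries were made from the RNA of 6 fibroblast cultures after ribosomal RNA depletion, per the labels' protocols. The authors deposited estimated counts per RefSeq transcript, with no scaling, made with kallisto on GRCm38 (mm10), per the submitters' processing notes; the sources used here do not give its version or settings. Of the values above 0, 84.6% were not whole (tolerance 1e-06). Of 53 member transcripts, 11 were matched to GENCODE for lengths and sequences.

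The estimated counts were summed per gene (120299 transcripts, 38896 genes), rounded to whole numbers, filtered by filterByExpr with a minimum count of 10 and a minimum total of 15, TMM-scaled and tested with edgeR 4.0.16 (R 4.3.3), group as the only term. Depth was 17293680 to 19482938 counts per library. Transcripts were tested alike, and their shares by diffSpliceDGE. The SE of an edgeR fit is the absolute log2 fold change divided by the square root of F, and is approximate. Alternatives were the mouse block, DESeq2 1.42.0, limma-voom 3.58.1, other scalings and filters, and leaving out each library or mouse with no block. The limit given for a 0 covers counting error only.

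Members, lists and tests were chosen with earlier results of these data known. Named were all members, Nrg1 transcripts with a mean of at least 1 CPM, in each pathway list the 3 genes with the smallest p and all called ones where there were 4 or fewer, and the 3 genes nearest in pattern to Ereg, Nrg1 and Egfr. A pair of genes of the pathway and marker lists are not reported here and are in no count of a list. Nrdc was listed under its older symbol Nrd1.

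The libraries pair by animal: over genes, deviations from the group means correlated with r = 0.352, 0.212 and 0.463 for the libraries of mice 1716, 1717 and 1718, and -0.36 to 0.0222 across mice. The values across mice are not independent of those within mice, as the deviations in a group cancel out for each gene. Libraries of a group differed by more than counting noise (chi-square per degree of freedom 9.61 to 21.9).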

Additional observations from a re-analysis of the deposited data

How the results depend on the processing

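Over all genes 2639 were called, 4965 with the replicate block and 2394 to 3039 under the other 7 settings. The leave-out fits, without 1 library or 1 mouse, gave 649 to 2418, with 1349 without control 1717, 1494 without control 1718, 649 without mouse 1717 and 664 without mouse 1718. Members called stayed at 2, Ereg and Egfr, with the paired fit and the other 7 settings; leaving out a library or mouse gave 0 to 2. It gave 0 without control 1718, mouse 1717 or mouse 1718. Nrg1 transcripts called for level or share numbered 0 under each setting tried, and Egfr transcripts called for level numbered 0. Directions turned for members that were not called: Btc was 0.0036 with library size alone and ran from -0.36 to 0.30 when a library or mouse was left out, Nrg1 from -0.57 to 0.53, Hbegf from -0.44 to 0.059 Tgfa from -0.13 to 0.96, and Areg, which kept its sign, from 0.65 to 2.63. Erbb3 ran from -0.84 to 0.071. Of the pathway genes named here, Erbb3, Pik3r1, Hras and Adam9 became called with the block, and so did further genes of the lists that are not named. In DESeq2 with the block Hras (adjusted p = 0.133), Adam9 (0.129) and Lrig3 (0.0534) were not called. Each scaling moved the median of all genes by less than 0.03. Areg and Epgn, with 59 and 16 counts over 3 libraries in DSS and 26 and 10 in control, are limited by depth.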
